A study of Mus musculus with 4 samples.

Results

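Dlx5, Prdm6, Tfap2d, Tfap2b, Foxf1, Vax2, Lhx5, Dmrt3 and Tbx15 are 9 genes for developmental transcription regulators, selected on the CTCF calls themselves: a peak list of a HoxB mutant holds a strong peak near each of them that the wild-type list lacks. They are 9 of 21327 protein-coding genes that could be placed, and 71 of the 56026 CTCF sites of the series lie within 50 kb of them. The cells came from mouse gastruloids, stem cell aggregates that elongate a body axis in culture, which were pooled and fixed at 96 h after aggregation. CTCF was mapped by ChIPmentation, in which Tn5 transposase tags chromatin on the antibody beads, in DelCBS7-10, InsCBS5-10 and wild-type gastruloids, with 1 library each. RAD21 was mapped in InsCBS5-10, and a further list holds the authors' RAD21 peaks in wild type. Both mutants have a deletion of HoxB on one chromosome and, on the other, lack the interval i9-13 and carry the inserted CTCF binding sites 5 to 10, and in DelCBS7-10 sites 7 to 10 were then removed from that insertion. The number of stem cell clones behind each genotype is not stated in the labels, and peak lists hold no expression by which the labelled tissue could be checked. None of the 9 genes lies on chromosome 11, where HoxB is.

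CTCF is a zinc-finger protein that binds a long DNA motif and halts the cohesin ring, of which RAD21 is a subunit, so that strong CTCF sites usually also carry cohesin. Promoters of developmental transcription factors often lie in CpG islands, stretches rich in the dinucleotide CG, and are held by Polycomb proteins in cells where the gene is silent. A list calls a peak where the signal stands above the local background of that library, and column 7 of the list is the fold enrichment at the summit over that background. A fold is therefore the authors' value for that list, and its percentile here is the share of peaks of the same list with an equal or lower fold. Folds and percentiles of different lists are given side by side as descriptions, since the lists differ in length and depth is unknown. Each genotype has 1 library, so its values have no replicate error and the genotypes are set side by side without a test.

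The DelCBS7-10 list held 36589 CTCF peaks, InsCBS5-10 held 34499 and wild type held 47931, so the list that lacks the peaks is the longest. RAD21 had 19610 peaks in InsCBS5-10 and 59484 in the wild-type list. Peaks of 800 bp or more made up 2.97% of DelCBS7-10, 2.97% of InsCBS5-10 and 0.778% of wild-type CTCF peaks. Overlapping CTCF peaks of the lists were merged to sites, called mutant-only where DelCBS7-10 or InsCBS5-10 has a peak and wild type has none, and shared where wild type and at least 1 mutant have a peak. Of the peaks of each list, 14.0% in DelCBS7-10 and 12.3% in InsCBS5-10 overlapped no wild-type peak. Of the sites called in a mutant, 19.7% of 42340 were mutant-only over the whole series, and of the members' 62 such sites 23 were mutant-only and 39 shared. A further 9 sites near the members were called in wild type alone. Of the 23, 20 were called in DelCBS7-10 and 10 in InsCBS5-10. Mutant-only calls chose the members, so their number is no result.

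Each gene had 1 strong mutant-only site, and these 9 sites were wide, lay mostly at gene ends and were strongest in DelCBS7-10. In DelCBS7-10 their folds were 7.89 to 14.3, at percentiles of 87.2 to 99.6, and their widths were 635 to 1477 bp. In InsCBS5-10, 7 of the 9 were called, at folds of 3.99 to 7.80, percentiles of 22.3 to 81.3 and widths of 376 to 817 bp. Wild type had no CTCF call at any of them, and its nearest peak was 3004 to 47234 bp away. Among the 5021 mutant-only sites of DelCBS7-10 the 9 ranked between 2 and 16 by percentile. This follows from how they were chosen. A mutant-only site at a percentile of 80 or more lay within 50 kb of 82 protein-coding genes, or 0.384%. The next strongest mutant-only site near each gene had a percentile of 45.8 for Vax2 and of 4.29 to 33.2 for Dlx5, Prdm6, Tfap2b, Lhx5, Dmrt3 and Tbx15, in whichever mutant was higher. Foxf1 had no other, and the only other one of Tfap2d was the strong site of Tfap2b.

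**Figure D1:**
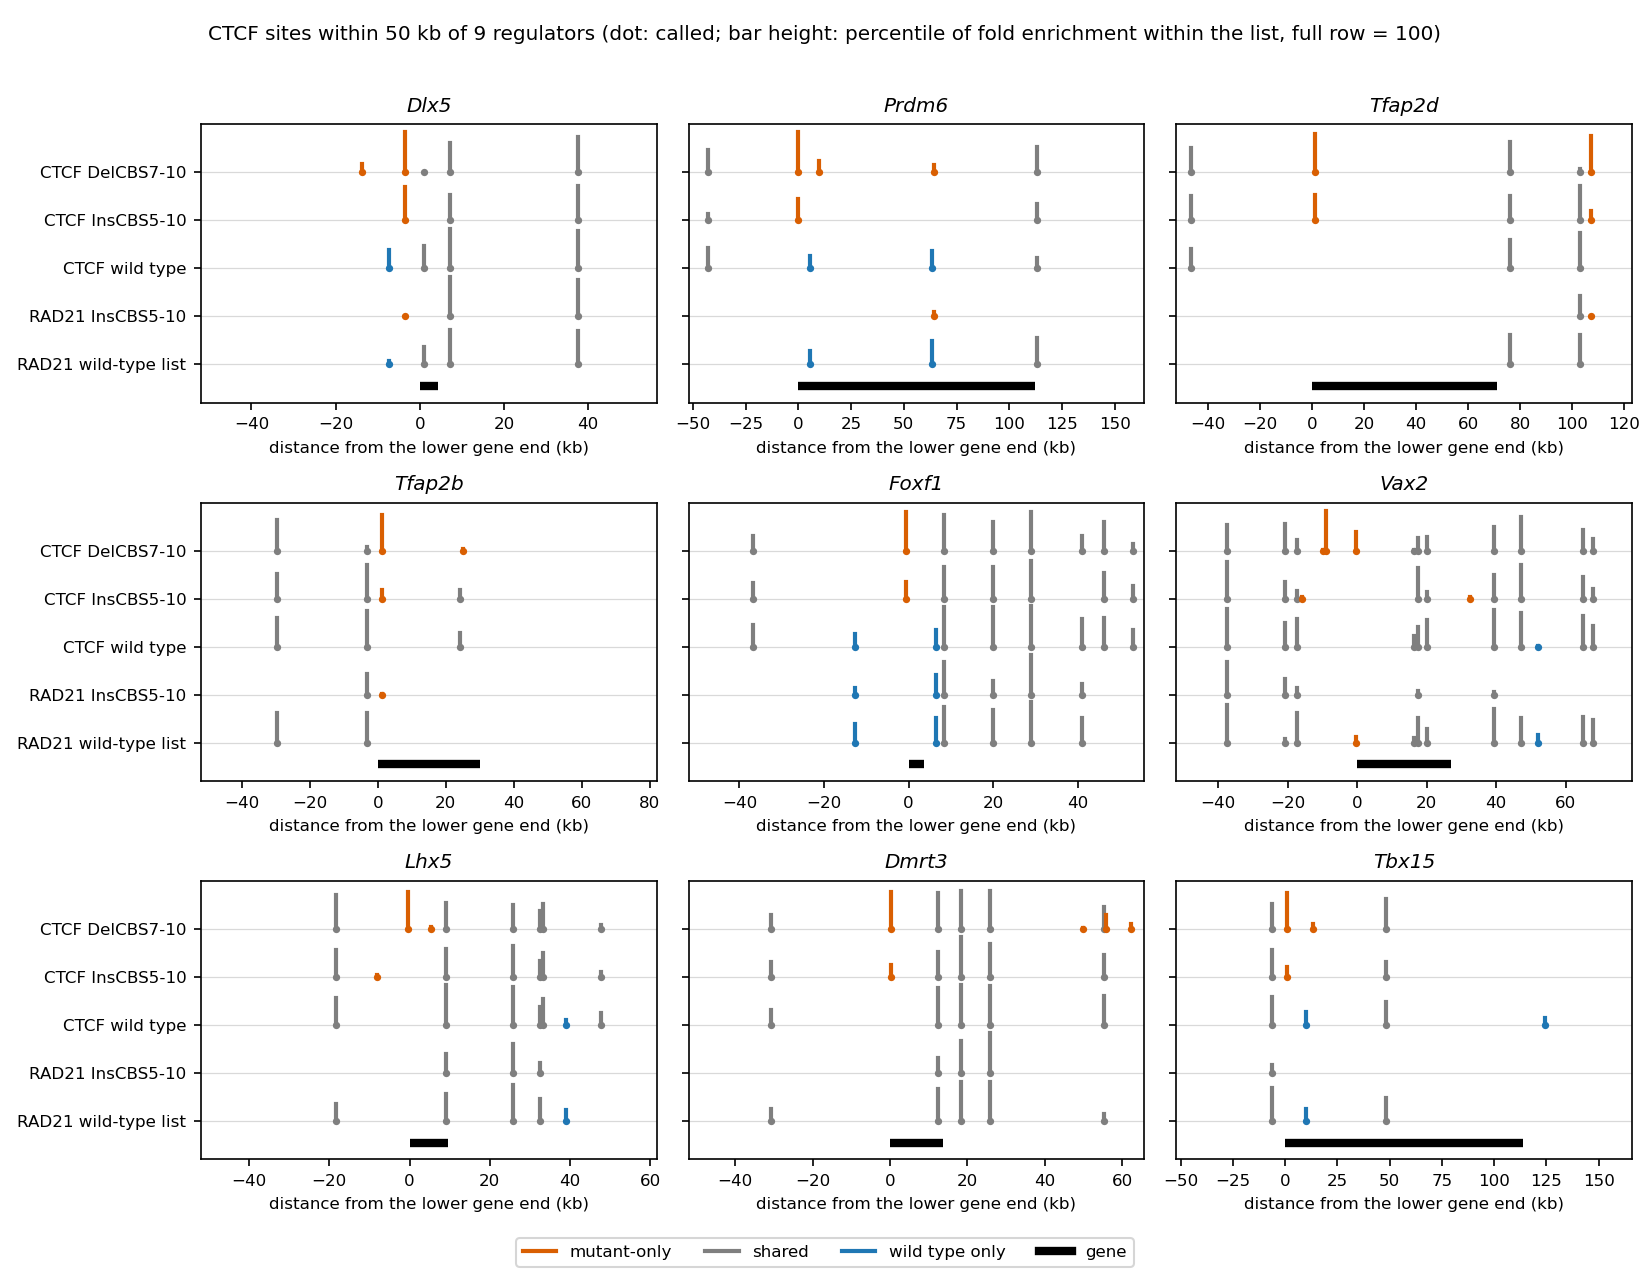
CTCF sites within 50 kb of each gene, by distance from the lower-coordinate gene end in kb, with a row for each list. A dot marks a call and the bar above it is the percentile of fold enrichment within that list, orange for mutant-only, grey for shared and blue for wild type only. The tallest orange bars in DelCBS7-10 stand close to the lower gene end for most genes, 8991 bp from it for Vax2, and the site of Tfap2b recurs at the right of the Tfap2d window; they have no bar in wild type, and in the RAD21 rows have no bar or a very low one.

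Dlx5 encodes a distal-less homeobox factor of branchial arches, ear and bone, and lies beside its convergent partner Dlx6. Its strong mutant-only site, at chr6:6874144-6874778 (mm10), lies 3410 bp from the lower end of Dlx5, in the stretch between the pair. The fold there was 14.3 in DelCBS7-10 and 7.80 in InsCBS5-10, with −log10 q of 104 and 20.0, and there was no call in wild type. This was the narrowest of the 9 strong sites in DelCBS7-10, at 635 bp, and one of 2 with RAD21 in InsCBS5-10. A weaker mutant-only site in DelCBS7-10 alone (fold 3.80) overlapped Dlx6. At the shared site 3030 bp beyond the upper end of Dlx5 wild type had the highest fold, with 6.61 in DelCBS7-10, 6.38 in InsCBS5-10 and 13.5 in wild type.

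Prdm6 encodes a PR-domain zinc-finger repressor of smooth muscle. Its strong site, on chromosome 18 from 53463670 to 53464654, spans the lower end of the gene. The fold was 13.8 in DelCBS7-10 over 985 bp and 5.77 in InsCBS5-10 over 817 bp, the widest of the 7 InsCBS5-10 peaks, with no call in wild type. Within the gene, DelCBS7-10 alone had weak sites at folds of 4.16 and 3.67, and wild type alone had weak sites at 3.83 and 4.77. The window of Prdm6 thus held weak calls on both sides, and its 2 shared sites reached folds of no more than 6.03 in any list.

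Tfap2d and Tfap2b encode AP-2 transcription factors, of which Tfap2b acts in neural crest and kidney. The genes are neighbours on chromosome 1 and their 50 kb windows share 3 sites, so they are not independent examples. The strong site of Tfap2d, at chr1:19103888-19104761, lies inside the gene, 1340 bp from its lower end. It had a fold of 9.15 over 874 bp in DelCBS7-10 and 6.25 over 569 bp in InsCBS5-10, and none in wild type. The strong site of Tfap2b, at chr1:19209587-19211063, lies 1184 bp inside the gene from its lower end. It was the widest, at 1477 bp in DelCBS7-10 with a fold of 7.98, against 501 bp and 3.99 in InsCBS5-10. A shared site 3085 bp before Tfap2b went the other way, with folds of 3.21 in DelCBS7-10, 7.96 in InsCBS5-10 and 10.7 in wild type, at percentiles of 8.54, 83.0 and 86.8. DelCBS7-10 was thus weak at the site next to Tfap2b that both other lists had strongly.

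Foxf1 encodes a forkhead factor of lateral plate mesoderm, and its long non-coding neighbour Fendrr starts beside it. The strong site, at chr8:121083155-121084247, lies 565 bp before the lower end of Foxf1. It had a fold of 8.97 over 1093 bp in DelCBS7-10 and 4.96 over 443 bp in InsCBS5-10, with no call in wild type. This was the only mutant-only site of Foxf1, beside 7 shared sites. The strongest shared site, 25324 bp beyond the gene, had folds of 8.97 in DelCBS7-10, 9.29 in InsCBS5-10 and 16.5 in wild type. In DelCBS7-10 the site at the lower gene end and this shared site thus had the same fold, to 3 digits, while their widths were 1093 and 345 bp.

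Vax2, a homeobox gene of the ventral retina, and Lhx5, a LIM-homeobox gene of the forebrain, had strong mutant-only sites in DelCBS7-10 alone. For Vax2 it was at chr6:83702083-83703137, 8991 bp before the lower gene end and within the antisense gene Vax2os, with a fold of 9.46 over 1055 bp. A second DelCBS7-10 site, at 338 bp before that end, had a fold of 5.09 over 786 bp. For Lhx5 the site was at chr5:120430926-120431875, 501 bp before the lower gene end, with a fold of 8.38 over 950 bp. Neither InsCBS5-10 nor wild type had a call at these 3 sites. InsCBS5-10 had its own mutant-only calls in both windows, but all 3 were weak, with folds of 3.04 or less. Vax2 had the most sites of the 9 genes, 16, of which 10 were shared.

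Dmrt3, a DM-domain gene of spinal interneurons, had its strong site at chr19:25610038-25611271, whose summit lies 375 bp inside the gene. The fold was 8.18 over 1234 bp in DelCBS7-10 and 4.45 over 426 bp in InsCBS5-10, with no call in wild type. Its neighbour Dmrt2 had a weak DelCBS7-10 site (3.49) at its start. Tbx15, a T-box gene of limb skeleton and skin, had its strong site at chr3:99240868-99241723, 1021 bp inside the gene. The fold was 7.89 over 856 bp in DelCBS7-10 and 4.12 over 376 bp in InsCBS5-10, again with no call in wild type. These were the weakest folds of the 9 sites in DelCBS7-10 besides those of Tfap2b.

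**Figure D2:**
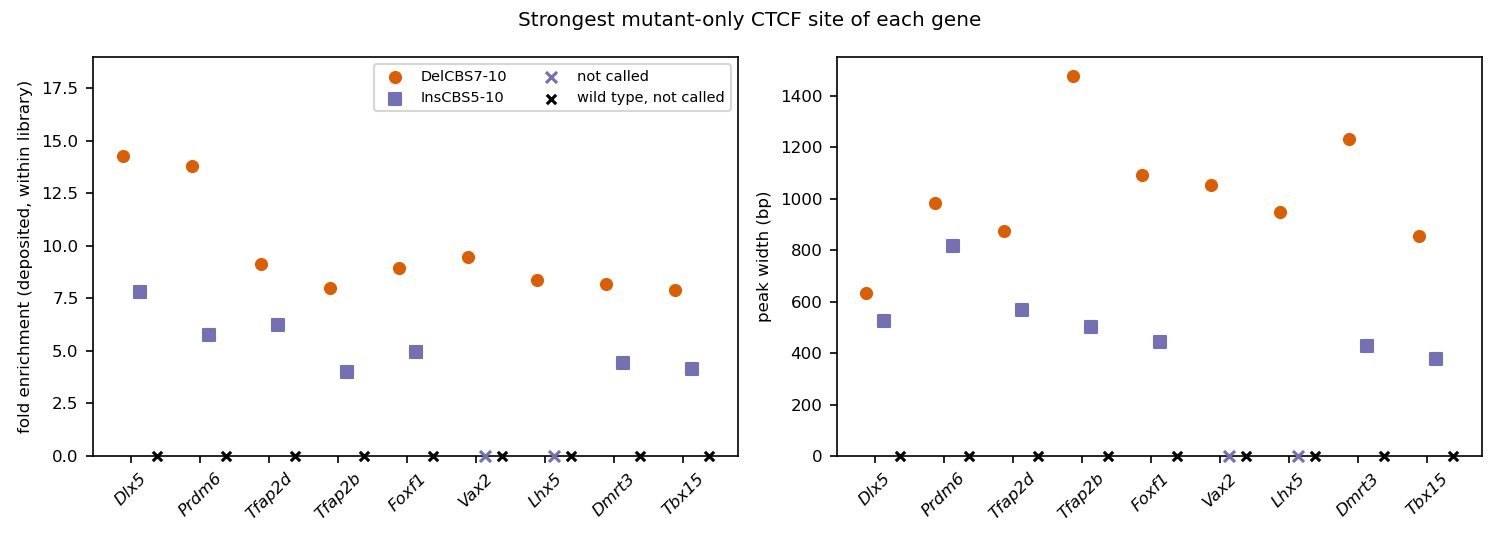
Fold enrichment (left) and peak width in bp (right) of the strongest mutant-only CTCF site of each gene, with DelCBS7-10 as circles, InsCBS5-10 as squares and crosses at 0 where a list has no call. DelCBS7-10 lies above InsCBS5-10 for all 7 genes called in both, and wild type has no call for any gene.

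At the 7 sites called in both mutants, DelCBS7-10 had the higher percentile and the wider peak at each, with a median difference in percentile of 54.5 (DelCBS7-10 minus InsCBS5-10). At the members' 35 sites called in all 3 CTCF lists, DelCBS7-10 had the higher percentile at 18 and the wider peak at 20, with a median difference of 1.59. Over the series, DelCBS7-10 was higher at 56.8% of 804 sites called in both mutants and not in wild type, and at 51.9% of 27474 sites called in all 3 lists. The members were picked for strength in 1 mutant list, so a gap between the mutants at these 7 sites is a description. Wild type had the highest percentile of the 3 lists at 26 of the 35 sites, or 74.3%, and at 51.2% of the sites of the series in all 3 lists.

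In DelCBS7-10, shared sites near the same genes with a percentile of 80 or more in either mutant were narrower than the 9 strong mutant-only sites. Median width at mutant-only sites was 684.5 bp in DelCBS7-10 (20 sites) and 434.5 bp in InsCBS5-10 (10 sites), and at shared sites it was 363.0 bp in DelCBS7-10 (38 sites), 363.0 bp in InsCBS5-10 (36 sites) and 358.0 bp in wild type (39 sites). Taking the peaks of both mutants together, the median was 512 bp (quartiles 351 and 846) at mutant-only and 363 bp (305 and 505) at shared sites. The median percentile ran the other way, at 31.8 (quartiles 12.2 and 87.7) at mutant-only and 59.8 (36.1 and 74.5) at shared sites. With peaks of −log10 q of 5 or more in every list this order turned, to 84.2 at mutant-only and 61.8 at shared sites, while the width stayed larger, at 802 and 372 bp. The 12 mutant-only sites left then include the 9 strong ones, so both values follow in part from how the members were chosen. Of the 9 strong mutant-only sites, 8 were 800 bp or wider in DelCBS7-10, the exception being that of Dlx5. None of the 10 shared sites with a mutant percentile of 80 or more was, and their widths in DelCBS7-10 were 244 to 620 bp.

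Over the series, 4.73% of DelCBS7-10 peaks at shared sites with a percentile of 80 or more in either mutant were 800 bp or wider. So were 19 of 35 at such mutant-only sites, 8 of them the members'. The percentile in DelCBS7-10 itself went down to 4.74 at these shared and 49.7 at these mutant-only sites, and to 8.54 at the members' 10 shared sites. The peaks compared are thus not all of like strength in DelCBS7-10. A mutant-only peak of 800 bp or more lay within 50 kb of 115 protein-coding genes, or 0.539%. Wide peaks were also more frequent in both mutant lists as a whole than in wild type, as given above, and their part in these widths was not tested.

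**Figure D3:**
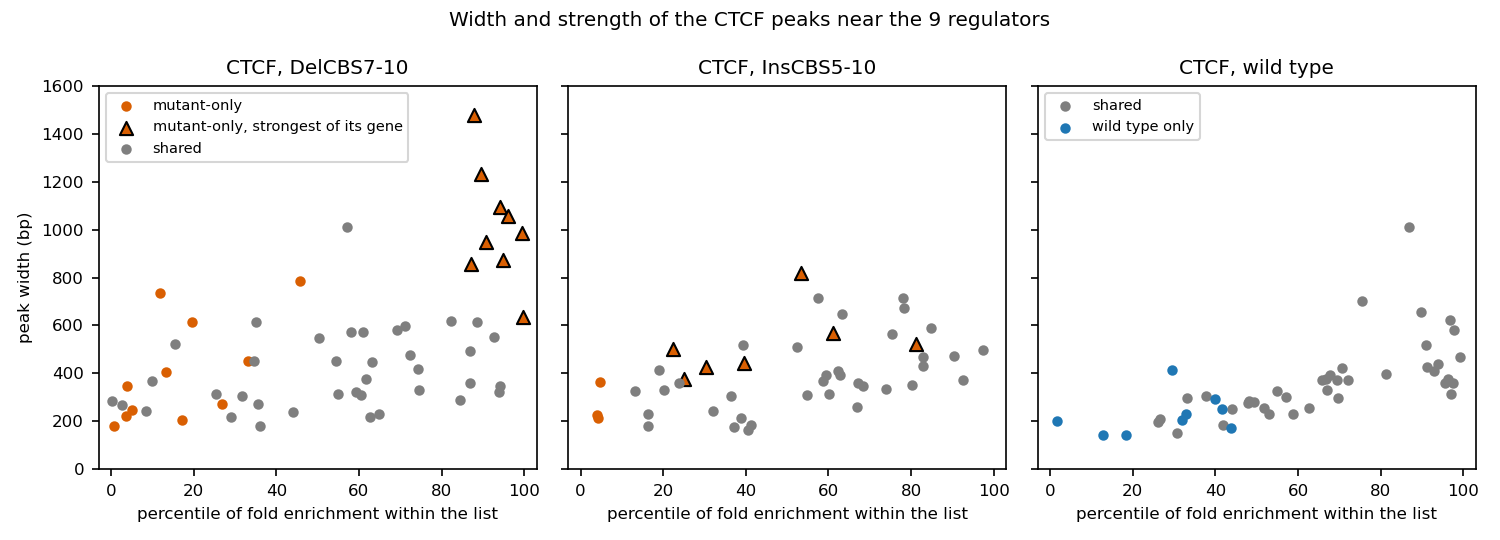
Peak width in bp against the percentile of fold enrichment within the list, for CTCF sites within 50 kb of the 9 genes, in DelCBS7-10, InsCBS5-10 and wild type. Triangles are the strongest mutant-only site of each gene, which in DelCBS7-10 lie at percentiles of 87.2 or above and are 635 to 1477 bp wide, against at most 620 bp at the shared sites with a mutant percentile of 80 or more.

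RAD21, a readout that did not choose the members, was mapped in InsCBS5-10 and wild type and not analysed here in DelCBS7-10. Wild type lacks a CTCF call at all 23 mutant-only sites by their definition, and InsCBS5-10 lacks one at 13 of them, so most of these sites have no CTCF call in the genotype whose RAD21 is read. In InsCBS5-10, RAD21 was called at 3 of 23 mutant-only sites (13.0%, exact Clopper-Pearson 95% interval 2.78 to 33.6) and at 19 of 39 shared sites (48.7%, 32.4 to 65.2). In the wild-type RAD21 list, 1 of 23 mutant-only sites (4.35%, 0.110 to 21.9) and 31 of 39 shared sites (79.5%, 63.5 to 90.7) had a peak. At sites with a CTCF call in InsCBS5-10 itself, RAD21 of InsCBS5-10 was at 2 of 10 mutant-only sites (20%, 2.52 to 55.6) and at 18 of 36 shared sites (50%, 32.9 to 67.1), and these intervals overlap. Intervals cover counting error only, and neighbouring sites are not independent. Over the series the shares in InsCBS5-10 were 2.62% of 8322 mutant-only sites and 50.8% of 34018 shared sites, and in the wild-type list they were 18.8% and 84.1%. At sites with a CTCF call in InsCBS5-10 the series had 3.12% of 4105 mutant-only and 54.6% of 30143 shared sites. The members' shares at shared sites were thus near those of the series. At mutant-only sites the members' share in InsCBS5-10 was higher, 13.0% against 2.62%, which lies just under the interval. In the wild-type list it was lower, 4.35% against 18.8%. These shares rest on 3 sites and 1 site, and the members hold strong mutant-only sites by choice.

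Of the 9 strong sites, those of Dlx5 and Tfap2b had RAD21 in InsCBS5-10, and none had it in the wild-type list (0 of 9, which allows a share of up to 33.3%, taken as 3 counts). Over the series, the 36 mutant-only sites with a percentile of 80 or more, which include the 9, had RAD21 at 8 (22.2%) in InsCBS5-10 and at 7 (19.4%) in the wild-type list, so the members' 2 of 9 was the same share as that of the series. Both RAD21 peaks were among the weakest of their list. That of Dlx5 had a fold of 2.91 and a percentile of 1.48, and that of Tfap2b had 2.81 and 1.20. The third mutant-only site with RAD21, inside Prdm6, was called for CTCF in DelCBS7-10 alone (RAD21 fold 3.78). A −log10 q of 5 or more was reached by 11 of the 23 sites in a mutant, and none of these 11 had a RAD21 peak of InsCBS5-10 past the same limit, which allows a share of up to 27.3% by the same count. The 1 site with a wild-type RAD21 peak was the weaker Vax2 site at the gene end (fold 2.87).

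RAD21 was called in InsCBS5-10 at 8 of the 10 shared sites with a mutant percentile of 80 or more (80%, 44.4 to 97.5), and in the wild-type list at 10 of 10 (69.2 to 100). Over the series it was 72.2% and 96.1% at such shared sites. RAD21 folds in InsCBS5-10 and wild type were 9.95 and 7.26 at the shared site 33286 bp beyond Dlx5, 13.2 and 12.2 at that beyond Foxf1, and 14.6 and 10.0 at a site 12151 bp beyond Dmrt3. The mutant-only sites were weaker in InsCBS5-10, where RAD21 was mapped, than in DelCBS7-10, so strength in InsCBS5-10 was also held alike. Among shared sites of the series, RAD21 was called at 37.5% for InsCBS5-10 CTCF percentiles above 20 and up to 40, and at 52.5% above 40 and up to 60. The members' mutant-only sites had 1 of 4 and 0 of 1 in these classes, too few to tell apart from the shared sites. Over the series, mutant-only sites in the same classes had 4.65% and 6.20%. Above 60 and up to 80, RAD21 was at 1 of 19 mutant-only sites of the series (5.26%), against 63.9% of 6878 shared sites. The members had 0 of 1 mutant-only sites there. Above a percentile of 80 in InsCBS5-10, mutant-only sites of the series had 4 of 5 (interval 28.4 to 99.5), against 76.3% of shared sites. The members' 1 such site, that of Dlx5, had RAD21. In the class up to 20, RAD21 was at 2.46% of 3135 mutant-only and 27.9% of 3575 shared sites of the series. The members had 0 of 3 mutant-only and 1 of 4 shared sites there. The gap between mutant-only and shared sites of the series was thus seen in every class up to a percentile of 80. It was not seen in the strongest class, which holds few mutant-only sites.

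**Figure D4:**
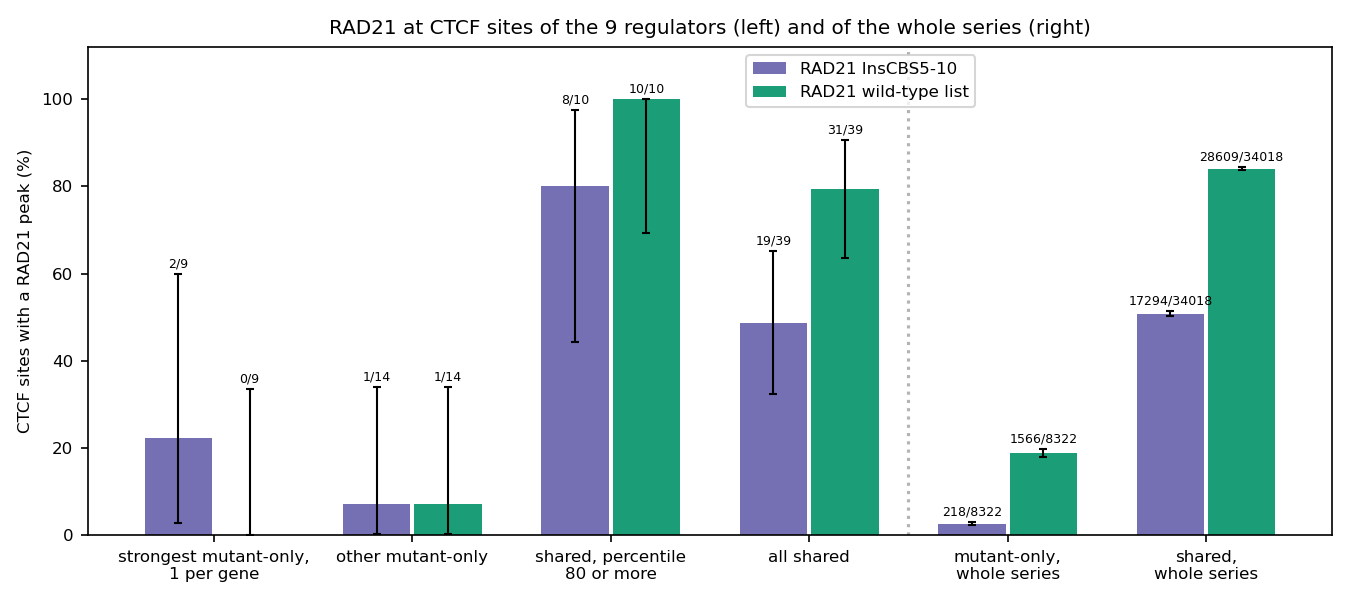
Share of CTCF sites with a RAD21 peak in percent, in InsCBS5-10 (left bar) and in the wild-type list (right bar), with exact 95% intervals and counts. The 9 strong mutant-only sites have 2 and 0, against 8 and 10 of the 10 shared sites with a mutant percentile of 80 or more.

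The strong mutant-only sites lay close to gene ends. The members were picked for a strong mutant-only peak near them, so closeness to a gene is partly set by that choice. Of the 9 strong sites, 7 had their summit within 2 kb of an end of a protein-coding gene (77.8%, 40 to 97.2), the exceptions being those of Dlx5 and Vax2. Of the members' 39 shared sites 9 did (23.1%, 11.1 to 39.3), as did 12.5% of mutant-only and 15.5% of shared sites over the series. Among all 36 mutant-only sites of the series with a percentile of 80 or more, which include the 9, it was 15. Other mutant-only sites of the members were within 2 kb in 4 of 14 cases.

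Promoter windows from RefSeq (GRCm38.p6, 250 bases before to 50 after a start) were next set against the sites. The table has windows for 3 of the 9 genes, Tfap2d, Tfap2b and Dmrt3. Windows of 7 starts overlapped mutant-only sites near the members: those of Tfap2d, Dmrt3, Dmrt2, 2610016A17Rik, Gm46817, Vax2os and Fendrr. The strong sites with a window were thus those of Tfap2d, Dmrt3, Tbx15 (Gm46817) and Foxf1 (Fendrr), 4 of 9 (44.4%, 13.7 to 78.8), against 1 of 39 shared sites (2.56%). The choice of the members bears on this share as well. Tfap2d has 3 windows, and only that of the start at 19104133 overlapped the site. Its starts at 19103022 and 19103036 lay 866 and 852 bp from the site, and their windows overlapped no CTCF site. Over the series a window was at 1.80% of mutant-only and 4.24% of shared sites, and at 7 of the 36 mutant-only sites with a percentile of 80 or more (19.4%), of which 4 are those of the members. Below are the 250 bases before 3 of these starts, and before that of Tex261, whose start lies in a shared site near Vax2 and which is shown for comparison. Each is written 5′ to 3′ along the gene, with every CG dinucleotide in capitals.
Dmrt3, chr19:25610287-25610536, plus strand, inside the mutant-only site: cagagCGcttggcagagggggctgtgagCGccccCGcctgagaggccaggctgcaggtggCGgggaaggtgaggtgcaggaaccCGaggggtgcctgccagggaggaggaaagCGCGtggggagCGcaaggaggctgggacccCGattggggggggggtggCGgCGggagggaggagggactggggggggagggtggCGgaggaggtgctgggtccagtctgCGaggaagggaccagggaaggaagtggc
Fendrr, chr8:121083111-121083360, minus strand, overlapping the mutant-only site of Foxf1: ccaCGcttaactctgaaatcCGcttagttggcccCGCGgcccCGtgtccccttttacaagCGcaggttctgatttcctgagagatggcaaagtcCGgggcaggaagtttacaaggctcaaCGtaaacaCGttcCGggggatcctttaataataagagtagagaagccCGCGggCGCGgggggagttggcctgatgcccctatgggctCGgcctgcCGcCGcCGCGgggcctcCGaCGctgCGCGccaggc
Tfap2d, chr1:19103883-19104132, plus strand, overlapping the mutant-only site: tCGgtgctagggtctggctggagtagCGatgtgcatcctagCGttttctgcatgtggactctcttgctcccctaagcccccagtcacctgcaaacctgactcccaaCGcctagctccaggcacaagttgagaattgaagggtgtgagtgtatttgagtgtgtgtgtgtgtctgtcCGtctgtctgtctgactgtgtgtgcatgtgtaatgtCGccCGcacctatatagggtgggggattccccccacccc
Tex261, chr6:83775813-83776062, minus strand, overlapping a shared site: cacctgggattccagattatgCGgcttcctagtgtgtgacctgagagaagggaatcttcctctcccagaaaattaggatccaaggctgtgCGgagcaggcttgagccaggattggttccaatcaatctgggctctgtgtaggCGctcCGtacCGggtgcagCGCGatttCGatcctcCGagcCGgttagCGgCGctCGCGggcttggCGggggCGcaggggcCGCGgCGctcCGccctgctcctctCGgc

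The 300-base windows held 10 CG dinucleotides for the Tfap2d start at the site, 15 for Dmrt3 and 31 for Fendrr, against 29 for Tex261. The other Tfap2d windows held 5 each. A median of 7 was found over all 32135 windows, 18.0 over 1338 windows at sites called in all 3 CTCF lists and 17.0 over 175 windows at mutant-only sites. CG content therefore did not set the windows at mutant-only sites apart from those at shared sites. A pattern from the core of the CTCF motif was searched on both strands: CC, then 3 bases of any kind, AG, 2 bases of any kind, and GGC. It was in none of the 7 windows at the members' mutant-only sites, nor in that of Tex261. It was in 8.61% of all windows, 35.2% of those at sites called in all 3 lists and 14.3% of those at mutant-only sites. The members' 7 windows are too few to tell apart from all windows or from those at mutant-only sites. A window covers only part of a wide peak, so the absence of this pattern says nothing of the rest of it.

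Other regulators of the same families and of the same kind were compared by the same count, from lists of 126 genes that could be placed. At least 1 mutant-only site lay within 50 kb of 88 of them (69.8%), of 19 of 30 housekeeping genes (63.3%) and of 46.7% of all protein-coding genes. Sites called in both mutants and not in wild type were near 18 (14.3%), 5 (16.7%) and 7.16%, so this count did not set the regulators apart from the housekeeping genes. Of the 9 members 7 had such a site, which follows from their choice. A mutant-only peak of 800 bp or more was near 23 of the 126 (18.3%), 0 of 30 housekeeping genes and 0.539% of all genes. The lists and the 800 bp limit were chosen with earlier results of these data known, so these counts are a description. A count of 0 in 30 genes does not set the share at 0. Without the sites of the members themselves, which fall in the windows of neighbours such as Dlx6, Foxc2, Foxl1 and Dmrt1, the regulators' count was 20 of 126 (15.9%). Neighbouring genes in this count can share a peak, so they are not separate cases. Six2 and Six3 had the same peak of 839 bp, and Zic1 and Zic4 the same peak of 947 bp.

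By family, mutant-only peaks of 800 bp or more were near 5 of 19 forkhead factors, 2 of 11 Lhx and Isl genes, 2 of 5 Dlx genes, 1 of 3 Tfap2 genes, 1 of 6 Dmrt genes and 1 of 14 T-box genes, with none near the 7 Prdm and 4 Vax and Emx genes. Without the members' own sites, the forkhead count was 3 of 19, since Foxc2 and Foxl1 counted through the site of Foxf1, and the Dmrt count was 0 of 6, since Dmrt1 counted through that of Dmrt3. The Dlx genes counted were Dlx1 and Dlx2, both through the same peak of 1243 bp. Among the strongest sites in both mutants of these lists that were not the members' own were those by Tfap2a, an AP-2 factor of neural crest, Tbx18, a T-box factor of somite and heart, Pax7, of dorsal neural tube and muscle, Foxb1, and Pax2, of kidney and midbrain. Widths in DelCBS7-10 and InsCBS5-10 were 1599 and 279 bp by Tfap2a, 1563 and 518 bp by Tbx18, 1908 and 517 bp by Pax7, 944 and 1077 bp by Foxb1, and 1823 and 463 bp by Pax2. Foxb1 was thus the one of these 5 with the wider peak in InsCBS5-10. RAD21 was called in InsCBS5-10 at the site by Tbx18, and in the wild-type list at none of the 5.

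**Figure D5:**
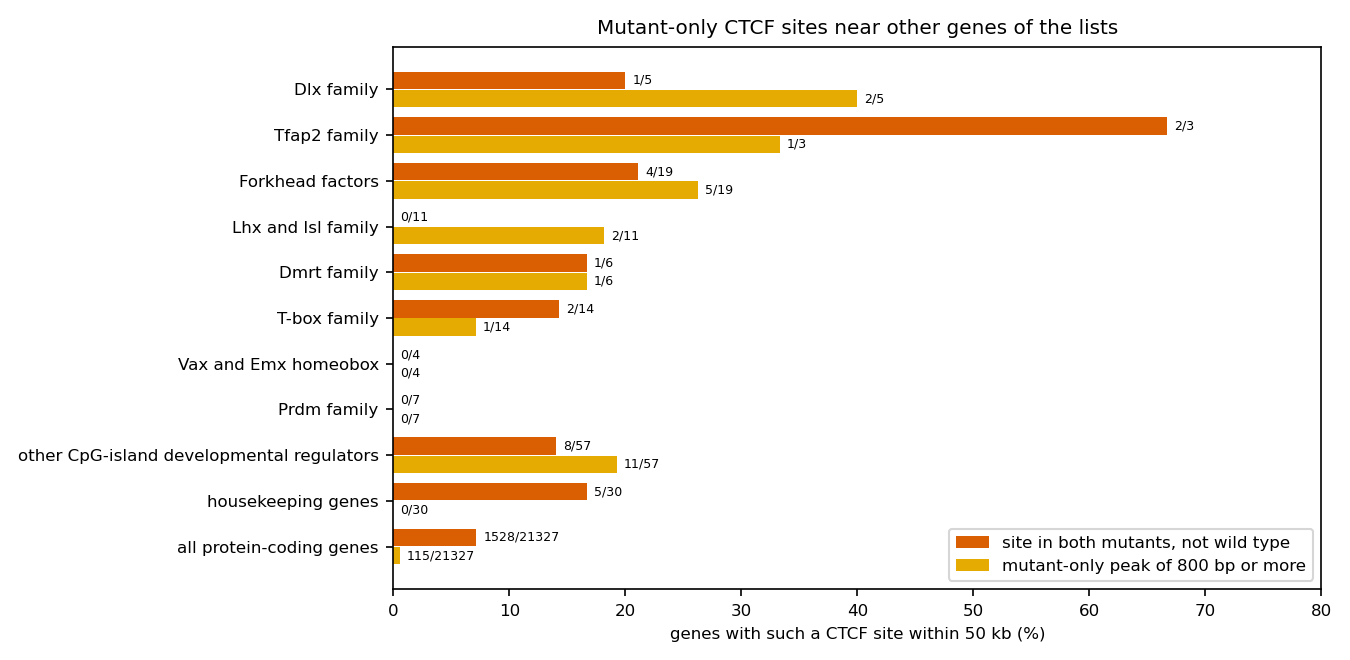
Share of genes in percent with a CTCF site called in both mutants and not in wild type (upper bar), or with a mutant-only CTCF peak of 800 bp or more (lower bar), within 50 kb, for the lists of related regulators, housekeeping genes and all protein-coding genes, with counts. Wide mutant-only peaks are near 11 of 57 other CpG-island developmental regulators and 0 of 30 housekeeping genes. Neighbouring genes can count through the same peak, and the lists and the 800 bp limit were chosen with earlier results of these data known.

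Over all protein-coding genes, the sites within 5 kb most like those of the members were ordered by the lower of the 2 mutant percentiles. After Spag6, a sperm flagellum gene (89.8), and Dlx5 itself (81.3) came Pkd1 (69.7), Pde11a (65.1), Clip4 (62.6) and Tfap2a (61.1), followed by Sema3e (59.6), Uimc1 (59.6) and Hoxc11 (53.1), with Tfap2d (61.0) and Prdm6 (53.3) among them. The sites by Tfap2a and Hoxc11 were 1599 and 1906 bp wide in DelCBS7-10, that by Spag6 was 787 bp, and those by Pkd1, Pde11a, Clip4, Sema3e and Uimc1 were 193 to 334 bp. Ordering by strength in both mutants thus also picked narrow sites at genes that encode no transcription factor.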

How the data were processed

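The authors deposited 1 MACS2 narrowPeak list per library. MACS2 2.2.7.1 and cutadapt 4.1 are named in the submitters' processing notes, with mm10 as the build, and per the names of the deposited lists that genome was edited at HoxB. For the aligner, read filters, control and caller options, nothing is stated in these sources. The deposited score is 10 times −log10 q. The deposited fold enrichment is a ratio to local background, and the deposited −log10 p and −log10 q come from the same library, with q of 0.05 or less. The wild-type RAD21 list (1 list) has no sample entry and is described by its own name. Depth is unknown from these files.

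Summits sharing an interval were collapsed to the strongest (Python 3.11.15, pandas 2.3.3) on chromosomes 1 to 19, X and Y, leaving out the chromosome 11 version without HoxB. CTCF peaks overlapping by 1 bp or more were merged to sites, and a gene's sites have a summit within 50 kb of its body (RefSeq, GRCm38.p6). Genes on chromosome 11 from Hoxb13 on were left out, since positions there are edited. Each list value at a site is that of its strongest peak. Simulated lists were used to test the merging.

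The members, gene lists and limits such as 800 bp and a percentile of 80 were chosen with earlier results of these data known. All 9 members are named. From the lists of related regulators, the 10 with the strongest site in both mutants and not wild type were taken, of which 1 is not reported here, and genome-wide the 8 genes most like the members.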

Additional observations from a re-analysis of the deposited data

How the results depend on the processing

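No paired analysis was possible because each group has 1 library. Of 81 values under 10 alternatives, 63 stayed within 1.5 times the main count, within the 95% interval of a share or within the quartiles of a median. With −log10 q of 5 or more in every list, the sites were rebuilt and the members had 12 mutant-only sites in place of 23, 1 of them shared before its weak wild-type peak fell under the limit, RAD21 was at 0% of them, and 54 related regulators in place of 88 had a mutant-only site. The median percentile then was 84.2 at mutant-only and 61.8 at shared sites, the opposite order to 31.8 and 59.8. The 9 strong sites that chose the members were among these 12 mutant-only sites. Sites rebuilt without the DelCBS7-10 list, chosen after seeing the data, gave 11 mutant-only sites and 41 related regulators, and without that of InsCBS5-10 21 and 77. RAD21 at shared sites was 48.7% by the InsCBS5-10 and 79.5% by the wild-type list. The share of mutant sites missing from wild type was 20.9% with an overlap of at least 50% of the shorter interval, 7.26% with the stricter q, 16.8% with no wild-type peak within 500 bp, 12.3% without DelCBS7-10 and 14.1% without InsCBS5-10, in place of 19.7%. The share of genes with a mutant-only site was 48.7%, 16.4%, 41.3%, 29.5% and 34.2% under the same settings, and 23.9% within 10 kb and 63.0% within 100 kb, in place of 46.7%. The cause was not tested.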
